A study of Mus musculus with 22 samples.

Results

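The data described here are 10 of the 22 RNA-seq libraries of the series: the last 2 libraries made for each of 5 viruses after 8 h of virus expression. One library per virus formed run 1 (replicate 3 of GFP, WT and S40A and replicate 1 of S133A and S40A-S133A) and one formed run 2 (replicate 4 of GFP, WT and S40A and replicate 2 of S133A and S40A-S133A). The libraries of a run carry consecutive library numbers, with no gap between the runs. The comparison was run 2 minus run 1 within each virus, which gives 5 pairs. The question was which genes differed between the runs whichever virus the neurons had received. The labels do not say what separated the runs or whether the libraries came from separate cultures, and the spread behind each p-value is that between these libraries and may be technical.

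All 10 libraries came from cortical neurons taken from E16.5 embryos of Creb1-/- mice on a C57BL/6 background and kept for 7 days in vitro. CREB is the transcription factor that Creb1 encodes, so the endogenous gene is disrupted in every group, the GFP controls included. Herpes simplex virus delivered GFP alone or one of 4 forms of CREB: wild type (WT), S40A, which cannot be glycosylated at that site, S133A, which cannot be phosphorylated there, and S40A-S133A with both changes. After 8 h of expression every culture was depolarised for 2 h with 55 mM KCl while its synaptic activity was silenced: TTX (1 µM) blocked sodium channels and D-AP5 (100 µM) blocked NMDA receptors.

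Depolarisation with KCl opens voltage-gated calcium channels, and the calcium signal switches on immediate early genes within minutes, without new protein synthesis. Several of these genes encode transcription factors (Fos, Npas4, Nr4a1, the Egr family), which together with CREB and SRF drive a later set of effector genes, among them Bdnf, Homer1 and Pcsk1. A further set encodes inhibitors of the same signalling pathways, such as the MAP kinase phosphatases and Sprouty proteins. In bulk RNA, fewer responding cells and less RNA per responding cell cannot be told apart.

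The CRE, the site CREB binds, reads TGACGTCA in full, and its shorter form reads TGACG. Both were searched on both strands of RefSeq promoters (GRCm38.p6, 250 bases before to 50 after the start). The full site was in 1.79% and the short form in 20.8% of 32851 promoters, and every full site also contains the short form. The 150 bases before the start site are shown for 7 genes that were higher in run 2 and whose promoter holds the short form, with that form or the full site in capitals, so that the kind of site can be set beside the values. The Fos window lies at chr12:85473740-85473889 on the plus strand.
Fos: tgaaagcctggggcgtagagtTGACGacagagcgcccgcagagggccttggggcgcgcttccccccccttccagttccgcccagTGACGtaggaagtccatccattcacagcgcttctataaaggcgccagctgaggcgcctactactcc
The Nr4a1 window lies at chr15:101266696-101266845 on the plus strand.
Nr4a1: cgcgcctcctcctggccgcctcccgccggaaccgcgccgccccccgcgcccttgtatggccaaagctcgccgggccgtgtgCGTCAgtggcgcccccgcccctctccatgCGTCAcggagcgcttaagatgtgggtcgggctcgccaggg
The Egr4 window lies at chr6:85513590-85513739 on the minus strand.
Egr4: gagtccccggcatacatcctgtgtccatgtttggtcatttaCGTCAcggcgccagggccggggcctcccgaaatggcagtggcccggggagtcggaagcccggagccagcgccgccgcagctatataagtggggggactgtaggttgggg
The Bdnf window belongs to the only one of its 7 promoters with the short form and lies at chr2:109692286-109692435 on the plus strand.
Bdnf: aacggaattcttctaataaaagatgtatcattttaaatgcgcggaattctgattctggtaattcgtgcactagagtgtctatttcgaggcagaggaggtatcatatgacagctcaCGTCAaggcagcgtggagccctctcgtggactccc
The Homer1 window lies at chr13:93303607-93303756 on the plus strand.
Homer1: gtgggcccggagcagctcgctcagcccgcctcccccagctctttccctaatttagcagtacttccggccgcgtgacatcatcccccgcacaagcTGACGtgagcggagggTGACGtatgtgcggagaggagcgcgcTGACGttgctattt
The Pcsk1 window lies at chr13:75089707-75089856 on the plus strand.
Pcsk1: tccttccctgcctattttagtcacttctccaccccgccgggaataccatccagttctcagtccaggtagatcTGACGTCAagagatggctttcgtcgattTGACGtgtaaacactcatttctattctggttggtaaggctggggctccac
The Arl5b window lies at chr2:15055170-15055319 on the plus strand.
Arl5b: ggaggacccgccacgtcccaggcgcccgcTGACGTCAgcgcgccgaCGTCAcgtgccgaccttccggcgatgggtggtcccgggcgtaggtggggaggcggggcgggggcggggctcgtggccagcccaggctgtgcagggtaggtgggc
Of these 7 genes, the windows of Pcsk1 and Arl5b hold a full site, while those of Fos, Nr4a1, Egr4, Bdnf and Homer1 hold only the short form. Among tested genes with a promoter in the table, 3.88% of 8704 held a full site in at least 1 promoter, against 6.28% of 1210 genes called higher and 3.56% of 1629 called lower. The short form was in 37.0%, 43.8% and 37.8% of the same genes. These are descriptions of letters and not of bound sites.

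The deposited values are FPKM, fragment numbers normalised for transcript length and library size. They were scaled to a common median across the 10 libraries, and a difference is given in log2 of the scaled FPKM plus 1, which understates the change of genes at low level. The depth that the deposited confidence bounds imply was about 19600000 to 25300000 fragments in run 1 and 18100000 to 22800000 in run 2. The libraries carried neuronal RNA: Snap25, a synaptic vesicle fusion protein, was at 129 to 156 scaled FPKM in run 1 and 129 to 158 in run 2. The microglial markers Cx3cr1 and P2ry12 were near 0, with Cx3cr1 at no more than 0.161 and P2ry12 listed at 0 in 5 of the 10 libraries. A pair of run 1 libraries, S133A and S40A-S133A, stood apart from the other 8 in a group of genes described at the end, and the number of genes called without these pairs is given below.

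Of 11802 genes tested, 3789 differed between the runs at an adjusted p below 0.05 (32.1%), in a fit that kept the virus as a pair. Of these, 1605 were higher in run 2 (13.6%) and 2184 were lower (18.5%). All 5 libraries of run 2 lay above all 5 of run 1 in 1147 genes (9.72%) and below all 5 in 1631 genes (13.8%). The genes called higher included 168 that at least doubled, and those called lower included 11 that at least halved. The count depended on which pair was left out. It was 4098 without the GFP pair, 1826 without WT, 1993 without S40A, 2029 without S133A and 2063 without S40A-S133A. With the S133A and S40A-S133A pairs both left out, the 3 pairs that remain leave 2 residual degrees of freedom, and 17 genes passed, 14 of them also called with 5 pairs. In that fit 2 of the activity-regulated effectors and 1 of the known CREB targets described below were called higher, and no member of the other gene lists was called in either direction. All 105 genes named here that passed with 5 pairs had the same sign with those 3 pairs. The 3 pairs are among the 5 that called these genes, so the shared sign is no separate check. Without scaling, 1011 genes were higher and 4445 lower, because the median over all genes moved from -0.025 to -0.134.

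Creb1 itself, carried by 4 of the 5 viruses, came first as the check of the labels. The GFP libraries held 14.9 scaled FPKM in run 1 and 11.1 in run 2. In run 1 the WT, S40A, S133A and S40A-S133A libraries held 758, 570, 568 and 675, and in run 2 they held 2060, 2300, 1830 and 2130. Every CREB library therefore lay far above the GFP libraries, and every CREB library of run 2 lay above every one of run 1. In the 4 CREB pairs Creb1 was 3.25-fold higher in run 2 (95% interval 2.68 to 3.93, adjusted p = 0.0055). The level of vector CREB thus moved with the run in 4 of the 5 pairs, and its part in the run differences of these pairs cannot be told apart from the run. The GFP pair has no CREB vector, and its own values are given beside those of the others.

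Fos, the transcription factor most used as a record of recent activity, stood at 224, 264, 517, 486 and 433 scaled FPKM in the GFP, WT, S40A, S133A and S40A-S133A libraries of run 1. In run 2, in the same order of viruses, it stood at 701, 455, 690, 567 and 606. Within run 1 GFP and WT were low, and within run 2 WT was the lowest, so that the runs overlapped although every pair rose. The difference was 0.71 in log2 (SE 0.21, adjusted p = 0.044), and it did not pass when any one of the WT, S40A, S133A or S40A-S133A pairs was left out (adjusted p up to 0.13).

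Npas4, a transcription factor induced by calcium entry alone, stood at 32.1, 37.2, 85.3, 87.8 and 76.1 in run 1 and at 182, 83.0, 173, 152 and 146 in run 2. The runs overlapped only because the WT library of run 2 lay below 2 of the run 1 libraries. Npas4 rose by 1.27 (SE 0.25, adjusted p = 0.015), and the adjusted p was 0.054 without the WT pair.

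Nr4a1, an orphan nuclear receptor of the early response, stood at 79.8, 87.7, 243, 182 and 151 in run 1 and at 429, 228, 394, 371 and 358 in run 2. GFP and WT were again the lowest of run 1, and WT the lowest of run 2. Nr4a1 rose by 1.35 (SE 0.24, adjusted p = 0.011).

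Bdnf, the neurotrophin whose transcription depends on calcium entry, stood at 1.91, 2.84, 16.6, 6.27 and 5.75 in run 1 and at 18.7, 12.9, 27.1, 32.3 and 26.6 in run 2. S40A was the highest of run 1, above the WT library of run 2. Bdnf rose by 1.90 (SE 0.28, adjusted p = 0.0067). Arc, a regulator of glutamate receptor uptake at synapses, stood at 39.3, 27.1, 36.7, 16.0 and 17.7 in run 1 and at 79.0, 57.7, 72.6, 58.9 and 66.3 in run 2. The Arc values of the runs did not overlap, and the order of viruses in run 1 differed from that of the other 4 markers, with S133A and S40A-S133A lowest. Arc rose by 1.33 (SE 0.17, adjusted p = 0.0047), and by 1.01 with the 3 pairs alone (adjusted p = 0.040).

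**Figure D1:**
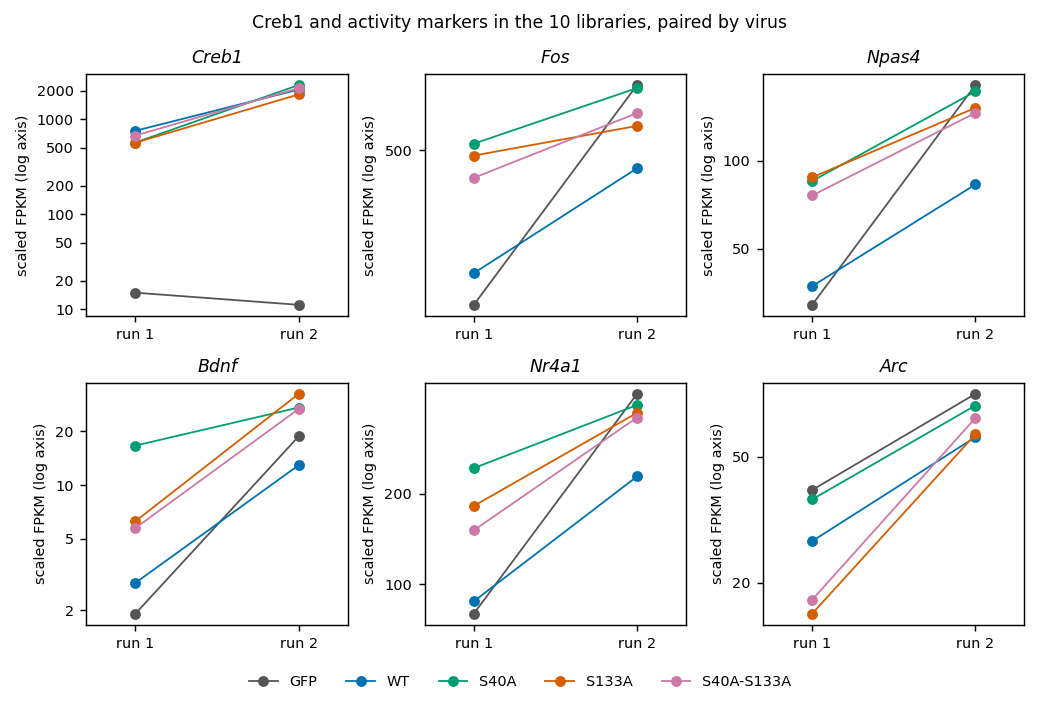
Scaled FPKM (log axis) of Creb1 and the 5 activity markers in run 1 and run 2, with 1 point per library and a line joining the 2 libraries of a virus. All 5 markers were higher in run 2 within every virus, and Creb1 was higher in the 4 CREB viruses and lower in GFP.

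The immediate early transcription factors were the list with the largest median. Of 31 measured, 28 were called higher (90.3%, beside 13.6% over all genes) and none lower. Their median was 1.08 against -0.03 over all genes tested. The largest was Egr4, a zinc finger factor of the early growth response family, which stood at 6.90, 8.48, 51.3, 10.6 and 7.92 in run 1 and at 142, 55.8, 146, 98.8 and 106 in run 2. Its runs did not overlap, but the S40A library of run 1 came close to the WT library of run 2. Egr4 rose by 2.99 (SE 0.37, adjusted p = 0.0047).

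Fosl2, an AP-1 subunit, rose by 2.23, and Maff, a small Maf protein, by 1.80. The orphan receptors Nr4a2 and Nr4a3 rose by 1.69 and 1.07, and the stress-responsive factor Atf3 rose by 1.37. Egr2, Egr3 and Egr1 rose by 1.20, 1.06 and 0.68. The AP-1 genes Fosb and Junb rose by 1.15 and 1.08, and Crem, which also encodes the repressor ICER, rose by 1.13. The 3 members that did not pass were Bhlhe40 at 0.71 (adjusted p = 0.079), Ier2 at 0.43 (0.15) and Jund, which is expressed without stimulation, at -0.16 (0.40). Some calls rested on single pairs: Egr2 did not pass without the WT or S40A-S133A pair, Fosb without WT, S133A or S40A-S133A, Crem without S133A or S40A-S133A, and Nr4a3 without WT (adjusted p up to 0.051, 0.064, 0.051 and 0.065). Leaving out single pairs left 21 to 27 of the 31 called higher. With the 3 pairs alone none passed, at a median of 1.19.

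By pair, the median of these 31 genes was 1.63 for GFP, 1.10 for WT, 0.63 for S40A, 1.00 for S133A and 0.99 for S40A-S133A. The pair without vector CREB thus had the largest median, and the S40A pair the smallest. Whether the list differed between pairs was not tested.

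Of 49 activity-regulated effectors measured, 39 were called higher (79.6%, beside 13.6% over all genes) and none lower, with a median of 0.90. In 34 of the 49 all run 2 libraries lay above all run 1 libraries, beside 9.72% of all genes tested. Pcsk1, a convertase that processes neuropeptide precursors, stood at 1.74, 2.86, 10.7, 3.02 and 3.72 in run 1 and at 25.0, 17.9, 26.5, 35.2 and 25.3 in run 2. The S40A library was again the highest of run 1, and the runs did not overlap. Pcsk1 rose by 2.48 (SE 0.30, adjusted p = 0.0043).

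Homer1, a postsynaptic scaffold gene whose short activity-induced form uncouples glutamate receptors, stood at 26.7, 27.2, 55.0, 38.3 and 44.0 in run 1 and at 162, 110, 177, 176 and 165 in run 2. The lowest library of run 2 was about double the highest of run 1. Homer1 rose by 2.05 (SE 0.13, adjusted p = 0.0012). The neuropeptide genes Adcyap1 and Tac1 rose by 2.22 and 1.90, and Tac1 did not pass without the WT, S133A or S40A-S133A pair (adjusted p up to 0.065). Fam46a rose by 1.91. Rgs2, a brake on G protein signalling, rose by 1.57, and Gadd45b and Nrn1 by 1.24 and 1.20. The synaptic pentraxins Nptx1 and Nptx2 rose by 0.83 and 0.73, the secreted peptide precursors Scg2 and Vgf by 1.00 and 0.90, and the prostaglandin synthase Ptgs2 by 0.84. Nptx2 and Scg2 did not pass when any one of the 4 CREB pairs was left out (adjusted p up to 0.086 and 0.098), Ptgs2 without the WT or S40A-S133A pair (up to 0.070) and Vgf without S40A-S133A (0.054). Among the members that did not pass, the peptide genes Sst, Penk and Npy had differences of 0.29 (adjusted p = 0.45), 0.10 (0.74) and -0.26 (0.070). Leaving out single pairs left 32 to 37 of the 49 called higher, and the 3 pairs alone left 2, at a median of 0.84.

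Genes that damp the same signals were also higher. Of 32 feedback inhibitors measured, 21 were called higher (65.6%, beside 13.6% over all genes) and none lower, with a median of 0.66. Spry2, a Sprouty inhibitor of receptor tyrosine kinase signalling, stood at 13.0, 12.8, 25.5, 21.9 and 22.8 in run 1 and at 82.3, 56.6, 99.3, 93.7 and 86.5 in run 2. The runs were far apart, with the lowest of run 2 more than double the highest of run 1. Spry2 rose by 2.10 (SE 0.11, adjusted p = 0.00097).

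Trib1, a pseudokinase, rose by 2.20, Dusp14, a phosphatase, by 2.05, and Nfkbiz, an atypical NF-κB regulator, by 1.87. Sik1, a kinase that restrains CREB coactivators, rose by 1.32, the phosphodiesterase Pde4d by 0.79 and the calcineurin inhibitor Rcan1 by 0.48. Of the 9 MAP kinase phosphatases, 5 were called higher (55.6%, beside 13.6% over all genes) and none lower, with a median of 0.49. Dusp6, Dusp4, Dusp5 and Dusp10 rose by 1.21, 1.10, 0.74 and 0.73, and Dusp1 at 0.49 did not pass (adjusted p = 0.081). Leaving out single pairs left 18 to 22 feedback inhibitors and 3 to 6 phosphatases called higher, and Dusp4 did not pass without the WT or S40A pair (adjusted p up to 0.065).

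Of 48 known CREB targets measured, many of them members of the lists above, 35 were called higher and 1 lower, with a median of 0.90. These were 72.9% and 2.08% of the list, beside 13.6% and 18.5% over all genes. Leaving out single pairs left 27 to 36 called higher, and the 3 pairs without S133A and S40A-S133A left 1. Crh, the stress peptide hormone, rose by 1.66 from levels under 2.2 in run 1 to 2.64 to 4.74 in run 2. The one called lower was Nos1, a nitric oxide synthase, at -0.30 (adjusted p = 0.040), which did not pass in any fit that left out 1 pair (0.051 to 0.096). The per-pair median was 1.23 for GFP, 0.81 for WT, 0.55 for S40A, 0.82 for S133A and 0.90 for S40A-S133A. CREB targets were therefore higher in run 2 at the median of every pair, the pair without vector CREB included. Of the 34 members with a promoter in the table, 7 held a full CRE (20.6%) and 29 the short form (85.3%), and some of these genes are known as CREB targets because of such sites.

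The CREB family and its coactivators did not share a direction. Of 13 measured, 3 were called higher and 3 lower (23.1% each, beside 13.6% and 18.5% over all genes), with a median of -0.09. Besides Creb1 and Crem, Atf1 rose by 0.34, and it did not pass without the WT, S40A or S133A pair (adjusted p up to 0.050). Atf2 fell by 0.30, Creb3 by 0.26 and the coactivator Crtc3 by 0.27, and Crtc3 did not pass when any one of the 4 CREB pairs was left out (adjusted p up to 0.092). The coactivator Crebbp was at -0.12 (adjusted p = 0.29). Of 9 genes of the O-GlcNAc pathway, which places the sugar at the site that S40A removes, Gfpt2, which feeds its sugar donor, rose by 0.98 and Pgm3 fell by 0.23. Pgm3 did not pass in any fit that left out 1 pair, and the transferase Ogt was at -0.17 (adjusted p = 0.11).

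**Figure D2:**
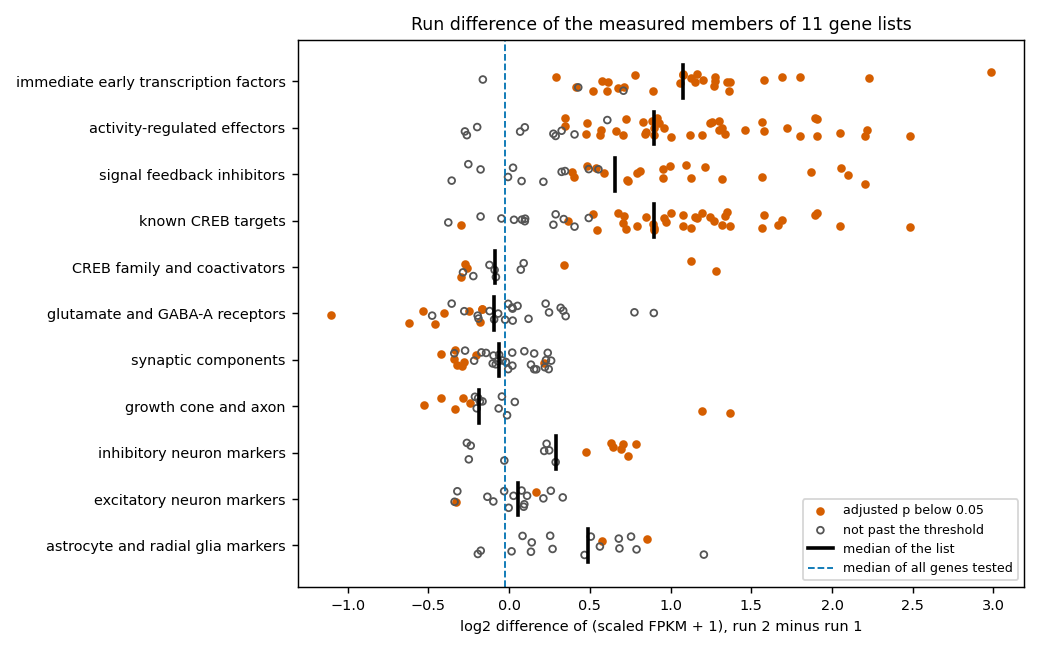
Log2 difference, run 2 minus run 1, of each measured member of 11 gene lists, with filled points for an adjusted p below 0.05, a bar at the list's median and a dashed line at the median of all genes tested. Members of the first 4 lists lie mostly to the right of the dashed line, while the receptor, synaptic and growth cone lists centre near or below it.

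Among all genes with an assigned name, a locus over 300 bp and a mean of at least 2 FPKM, the 15 largest rises with the same sign in all 5 pairs were mostly members of these lists. The others were Col10a1, a collagen, which rose by 2.95, Pim1, a kinase, by 2.12, Arl5b, a small GTPase, by 2.04 and Klf5, a zinc finger factor, by 1.90. Utp14b was listed at 0 in 3 libraries of run 1 and stood at 7.81 to 12.6 in run 2, and a value of exactly 0 can be a failed estimate. Pim1 differed from Fos, Npas4, Nr4a1 and Bdnf in its order of viruses, with GFP highest in run 1 as for Arc. Pim1 stood at 8.59, 5.70, 4.77, 6.00 and 5.88 in run 1 and at 32.9, 21.2, 35.6, 32.2 and 29.2 in run 2. GFP was the highest Pim1 library of run 1, S40A the lowest, and the runs did not overlap.

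**Figure D3:**
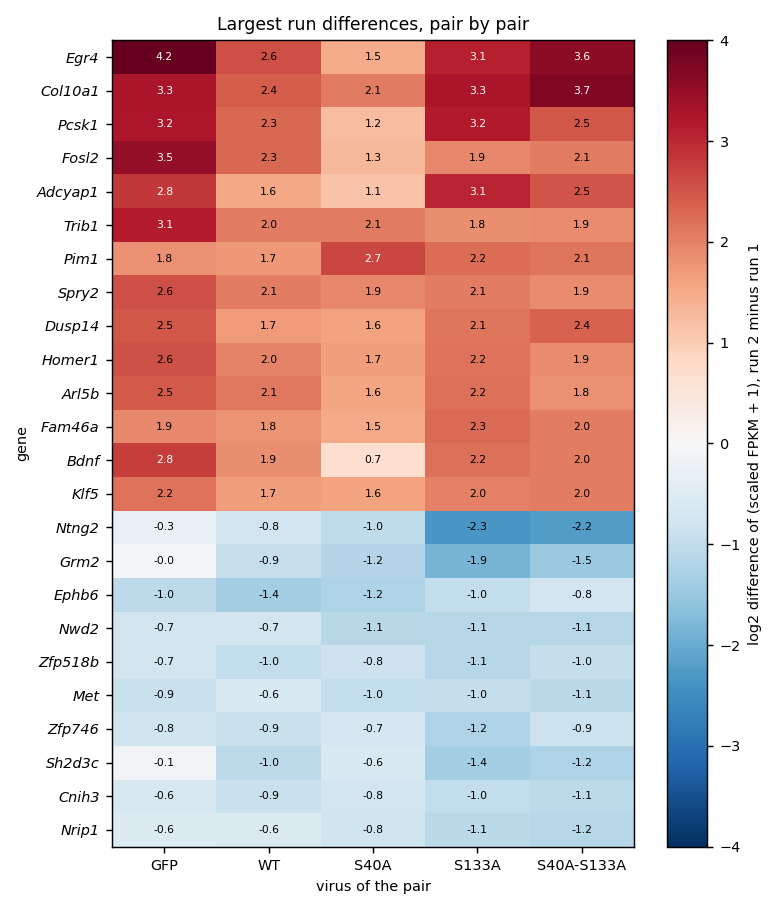
Log2 difference, run 2 minus run 1, of the named genes with the largest rises and falls, with 1 column per virus pair. Rises of Egr4, Fosl2 and Trib1 were largest in the GFP pair, and Ntng2 fell most in the S133A and S40A-S133A pairs. Grm2 fell in all 4 CREB pairs, by -0.93 to -1.87, and was at -0.05 in the GFP pair. Genes listed at 0 in any library or listed at more than 1 locus were left out.

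Ephb6, a kinase-dead Eph receptor, stood at 9.55, 12.4, 12.7, 9.98 and 9.11 in run 1 and at 4.11, 4.26, 4.85, 4.52 and 4.90 in run 2. The runs did not overlap and varied little within themselves. Ephb6 fell by 1.08 (SE 0.09, adjusted p = 0.0020). Nwd2 fell by 0.97, the receptor tyrosine kinase gene Met by 0.90, the AMPA receptor partner Cnih3 by 0.86 and the nuclear receptor corepressor Nrip1 by 0.83.

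Ntng2, an axonal netrin-G protein, stood at 8.00, 9.57, 11.9, 27.6 and 25.1 in run 1 and at 6.37, 5.16, 5.43, 4.64 and 4.55 in run 2. Its S133A and S40A-S133A libraries of run 1 were more than double the others. It fell by 1.33 (SE 0.33, adjusted p = 0.029), and did not pass when any one of the 4 CREB pairs was left out (adjusted p up to 0.087). Grm2, a presynaptic glutamate receptor, fell by 1.10 and Sh2d3c by 0.88, with the same dependence (adjusted p up to 0.079 and 0.070). Fbxl2 stood at 5.82 to 8.30 in run 1 and was listed at 0 in all 5 libraries of run 2. Srrd and Tmco6 were listed at 0 in 4 libraries of run 2 each.

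The zinc finger genes Zfp518b and Zfp746 fell by 0.93 and 0.90. After these values had been seen, all 322 tested genes with a Zfp, Zkscan, Zscan or Zbtb symbol were counted: 131 were called lower (40.7%) and 25 higher (7.76%), with a median of -0.22 and per-pair medians of -0.21, -0.25, -0.11, -0.32 and -0.20. The shares over all genes were 18.5% lower and 13.6% higher.

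Of 31 glutamate and GABA-A receptor subunits, 9 were called lower (29.0%) and none higher, beside 18.5% lower and 13.6% higher over all genes, including Gabrb1 (-0.62), Gabra2 (-0.54) and Gria2 (-0.46). Of 34 synaptic entries, 7 were called lower (20.6%), a share near that of all genes, including the vesicle protein Syn1 (-0.42), and 1, the vesicle fusion protein Vamp2, was higher by 0.22. Syn1 and Vamp2 did not pass when any one of the 4 CREB pairs was left out (adjusted p up to 0.057 and 0.070). Of 16 growth cone genes, 5 were called lower (31.2%) and 2 higher (12.5%). Tubb3, the neuronal tubulin, was at 412 to 492 scaled FPKM in run 1 and 297 to 332 in run 2, with no overlap, and fell by 0.53 (SE 0.05, adjusted p = 0.0028). Dpysl3 and Stmn1, regulators of microtubules in growing axons, fell by 0.42 and 0.34, and neither passed when any one of the 4 CREB pairs was left out (adjusted p up to 0.064 and 0.089). Leaving out single pairs gave 3 to 11 receptor subunits, 1 to 10 synaptic entries and 1 to 9 growth cone genes called lower. Without the S40A pair, 2 synaptic entries and 2 growth cone genes were called in each direction, and without the WT pair 2 growth cone genes were higher and 1 lower.

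Ion channel genes moved both ways, as did all genes tested, of which 13.6% were called higher and 18.5% lower. Of 35 calcium channel and handling genes, 6 were called higher (17.1%) and 9 lower (25.7%), among them the L-type subunit Cacna1d, which rose by 0.57, and the auxiliary subunit Cacnb3, which fell by 0.39. Without any one of the 4 CREB pairs, 2 to 3 of these were higher and 2 to 4 lower. Of 33 potassium channels, 7 were called higher (21.2%) and 3 lower (9.09%), and 5 to 6 higher and 0 to 2 lower without single pairs. Kcnf1 and Kcnj2 rose by 1.08 and 0.73, and Kcna4 fell by 0.51, a call lost when any one of the 4 CREB pairs was left out (adjusted p up to 0.074). Of 27 genes of the unfolded protein and integrated stress responses, 11 were called higher (40.7%, beside 13.6% over all genes) and none lower. Without single pairs 6 to 12 were higher. Atf5 (0.79) and Ppp1r15a (0.75) led them. Of 17 cytosolic heat shock genes, 9 were called higher (52.9%) and 2 lower (11.8%), and 5 to 9 were higher without single pairs. Bag3 rose by 1.16 and Hspb1 by 0.79, and Hspa8 fell by 0.53. These 3 calls were lost when any one of the 4 CREB pairs was left out (adjusted p up to 0.089). The pro-apoptotic gene Bcl2l11 rose by 1.31. Of 23 genes of apoptosis and the p53 response, 6 were called in each direction (26.1% each, beside 13.6% higher and 18.5% lower over all genes). Without single pairs 1 to 4 were lower.

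Genes of growth and metabolism showed smaller differences. Of 25 ribosome biogenesis genes, 13 were called higher (52.0%, beside 13.6% over all genes) and 1 lower, and 7 to 14 were higher without single pairs. Nolc1 (0.67) and Ubtf (0.50) were among those higher. Of 50 ribosomal protein genes, 16 were called higher (32.0%) and 2 lower (4.0%), and Rpl3 fell by 0.76. The ribosomal protein count was 3 to 16 higher without single pairs, 2 higher and 4 lower without scaling, and 1 higher with all 16 libraries at 8 h. Of 19 glycolysis genes, 6 were called higher (31.6%) and 2 lower (10.5%), and 3 to 5 were higher without single pairs. The neuronal glucose transporter Slc2a3 led them and rose by 1.07. The clock gene Clock rose by 0.45. Of 25 sterol and fatty acid synthesis genes, 3 were called higher (12.0%, near the 13.6% over all genes), among them Msmo1 and Cyp51, at 0.76 and 0.67. Without the GFP pair 3 were called higher and 9 lower, and without any one of the 4 CREB pairs none was called. Msmo1 and Cyp51 did not pass when any one of the 4 CREB pairs was left out (adjusted p up to 0.082 and 0.088), and the list's median was 0.68 in the GFP pair and between -0.19 and 0.09 in the 4 CREB pairs.

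Markers of cell types other than excitatory neurons moved with the run in part. Of 15 inhibitory neuron markers, 7 were called higher (46.7%, beside 13.6% over all genes) and none lower. Their median was 0.29, with summed levels of 382 to 588 scaled FPKM in run 1 and 526 to 757 in run 2. The sum fell from 588 to 533 in the S133A pair and rose in the other pairs. Without single pairs 5 to 7 were called higher and 0 to 2 lower, at medians of 0.156 to 0.497. Among the inhibitory markers the interneuron transcription factors Dlx5 and Dlx6 rose by 0.78 and 0.65, and Gad2, which makes GABA, rose by 0.47. Dlx5 did not pass without the WT or S40A-S133A pair, nor Gad2 without the S40A, S133A or S40A-S133A pair. Of 16 excitatory markers, 1 was called in each direction (6.25% each), Cux2 at 0.17 and Neurod6 at -0.33. Summed levels were 527 to 664 and 559 to 650. Neither the Cux2 nor the Neurod6 call held in every fit that left out 1 pair.

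Of 18 astrocyte and radial glia markers, Sox2 and Sox9 were called higher (0.85 and 0.57) and none lower. That share, 11.1%, was near the 13.6% called higher over all genes. Of the 18, 16 lay above 0, beside 5389 of 11802 over all genes, and their median was 0.49, beside -0.03. By pair the median was -0.35 in GFP and -0.22 in S40A-S133A, and above 0 in the other 3. The Sox2 and Sox9 calls were lost in some fits with 1 pair left out (adjusted p up to 0.052 and 0.13). Summed over the list, run 1 held 488, 254, 209, 263 and 521 scaled FPKM in GFP, WT, S40A, S133A and S40A-S133A, and run 2 held 333, 491, 323, 553 and 386. The summed level was thus lower in run 2 in the GFP and S40A-S133A pairs and higher in the other 3. Gfap, the defining astrocyte filament, stood at 0.884 to 19.6 in run 1 and 2.35 to 13.5 in run 2. Col1a1, a fibroblast collagen, rose by 1.31 from at most 1.58 to 2.48 to 4.91. Of the 2 vascular and fibroblast markers at a level to be tested, it was the 1 above 0. The other was below 0, not called with 5 pairs and called lower without the GFP pair. The markers Pecam1, Cldn5 and Col3a1 were all under 1 scaled FPKM. Pecam1 was at 0.118 to 0.405 in run 1 and 0.579 to 0.98 in run 2, and the summed vascular and fibroblast list at 3.74 to 6.62 and 7.46 to 12.3, neither with overlap. The summed microglial list was at 9.86 to 13.9 in run 1 and 16.3 to 18.9 in run 2, also without overlap. No interferon gene of 5 measured and no oligodendrocyte marker of 7 was called in either direction. All 7 oligodendrocyte markers lay above 0, at a median of 0.24. The part of other cell types in the run differences was not tested.

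The next comparison asked whether the run difference itself depended on the phosphorylation site. The mean difference of the S133A and S40A-S133A pairs was set against that of the WT and S40A pairs, with 2 residual degrees of freedom. In 145 of 11802 genes (1.23%) the difference passed, 130 of them more positive in the viruses without S133 and 15 more negative. Nrgn, a calmodulin-binding postsynaptic protein, stood at 323, 358, 336, 75.9 and 74.7 in the GFP, WT, S40A, S133A and S40A-S133A libraries of run 1 and at 283, 344, 306, 381 and 353 in run 2. Both libraries without S133 were therefore far below the others in run 1 and slightly above them in run 2. The difference of differences was 2.37 (SE 0.07, adjusted p = 0.0055).

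Slc17a7, the vesicular glutamate transporter, stood at 83.7, 92.3, 85.3, 31.3 and 30.1 in run 1 and at 64.1, 67.8, 63.4, 75.9 and 74.4 in run 2, and Cck, a neuropeptide, at 35.1, 30.6, 30.7, 9.86 and 9.40 and at 32.2, 35, 36.6, 39.3 and 38.2. Both genes showed the pattern of Nrgn, with differences of 1.696 for Slc17a7 and 1.69 for Cck (adjusted p = 0.0055 and 0.0078). The transporter gene Slc6a7 had a difference of 2.24 (adjusted p = 0.0091). Emc9, Rasl10a, Arg2 and Ctsz were listed at 0 in both run 1 libraries without S133 and in no other of the 10. Of the 113 positive genes that met the conditions on name, locus and mean, 106 had both run 1 libraries without S133 below all 8 others. Ntng2 and Arc were among the 145 genes, at -1.39 and 0.82 (adjusted p = 0.040 and 0.039), as was Kcnf1, at 0.82 (adjusted p = 0.033).

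In run 2 both libraries without S133 were the highest for Nrgn, Slc17a7, Cck, Slc6a7 and Emc9 and the lowest for Arg2, by smaller gaps than in run 1. Across the 113 positive genes the median of log2(scaled FPKM + 1) was 3.04 (S133A) and 2.94 (S40A-S133A) in run 1, against 4.01 to 4.13 in the others. In run 2 it was 4.04 and 3.97, against 3.92 to 3.96. Outside the 10 libraries, Nrgn stood at 48.4 to 68.8 in the 6 libraries made after 4 h of virus and at 99.9 to 310.0 in the 6 earlier libraries at 8 h, and Rasl10a was listed at 0 in all 6 at 4 h, on a scale common to the 22. The number of genes called was 48 to 71 when 1 of the 4 pairs was left out: 59 without WT, 71 without S40A, 48 without S133A and 56 without S40A-S133A. In the GFP, WT, S40A, S133A and S40A-S133A libraries, summed excitatory markers stood at 598, 625, 664, 565 and 527 in run 1. In run 2 they stood at 577, 559, 610, 650 and 611. The S133A and S40A-S133A libraries were thus the lowest of run 1 for this sum. Slc17a7, described above as low in both, is itself an excitatory marker, so the sum is no separate check. What set these libraries apart was not tested.

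**Figure D4:**
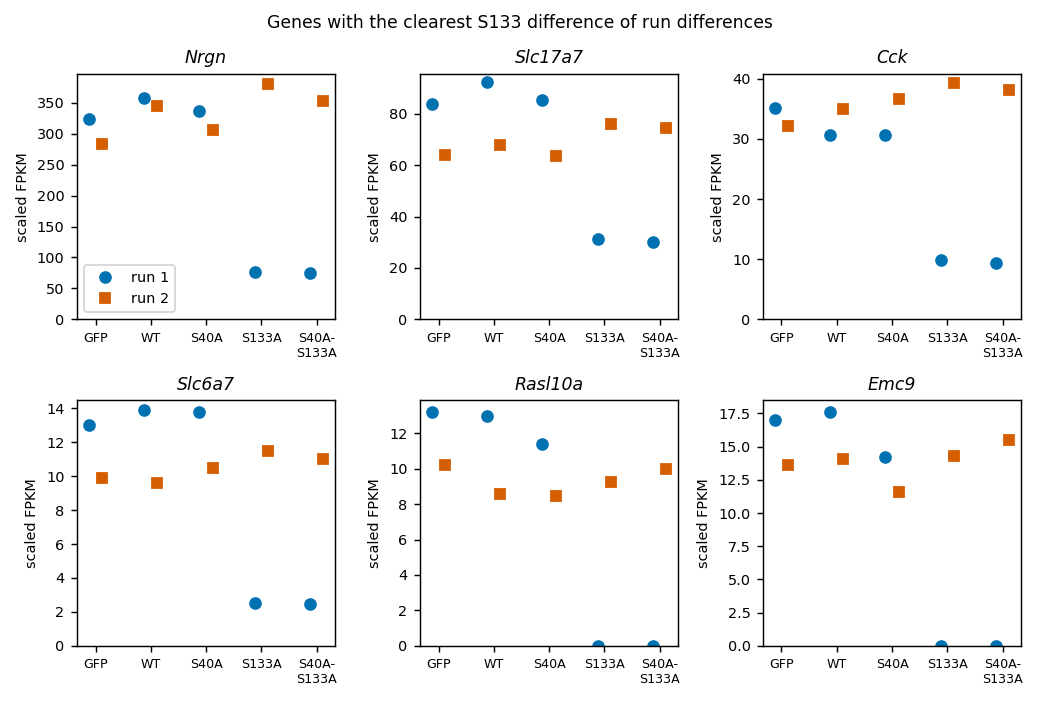
Scaled FPKM of 6 genes with a clear difference of run differences between viruses without and with S133, for run 1 (circles) and run 2 (squares) by virus, with 1 point per library. The S133A and S40A-S133A libraries of run 1 lie below the other 8 in all 6 panels and are listed at 0 for Rasl10a and Emc9.

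The last comparison set the run difference of the 4 CREB pairs against that of the single GFP pair, and in 27 genes (0.229%) it passed. GFP has 1 pair here, so that its difference has no spread of its own and is assumed to vary like the CREB pairs, and 1 library can decide a call. Of the genes that met the conditions on name, locus and mean, 2 passed. Klf10, a TGF-β-induced zinc finger factor, stood at 19.4, 13.1, 9.74, 8.85 and 8.07 in run 1 and at 19.3, 26.2, 19.5, 18.7 and 17.4 in run 2. It was level in the GFP pair and about double in run 2 in each of the 4 CREB pairs, with a difference of 0.99 (SE 0.09, adjusted p = 0.048). Itgb1bp1 was listed at 0 in the GFP library of run 2 and stood at 5.02 to 7.41 in the others (adjusted p = 0.014).

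Creb1 had a difference of 2.09 (adjusted p = 0.096), Npas4 of -1.50 (0.071) and Hddc3 of -1.70 (0.071). Hmgcs1 and Sqle, enzymes of sterol synthesis, were at -0.86 and -1.22 (0.073 and 0.096), and Pard6a, a cell polarity protein, was at -0.99 (0.10). Sqle stood at 36.8, 55.2, 98.5, 98.3 and 109 in run 1 and at 89.8, 63.0, 105, 98.6 and 101 in run 2. Its low libraries were GFP and WT of run 1 and WT of run 2, the same libraries that were low for Fos, Npas4 and Nr4a1.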

How the data were processed

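RNA was sequenced on an Illumina instrument, and CASAVA 1.7, Bowtie 0.12.2 and Cufflinks were used per the submitters' processing notes, which name 2 mouse builds with no role. The loci in the deposited files lie on mm10. The authors deposited FPKM per gene with 95% bounds and no counts; reads per gene and the total depth were not used here, and the depth was estimated from those bounds. Of 24490 entries, 11802 were tested, those averaging 1 FPKM or more in the 10 libraries with no failed estimate; 15 entries with a failed estimate were left out. Libraries were scaled by median ratios and tested with limma 3.58.1 (R 4.3.3) with a mean-variance trend on log2(scaled FPKM + 1), with virus and run as terms and p-values adjusted by Benjamini-Hochberg over all genes. The pairs come from the virus in the labels. No library duplicated another. The fit was tested on simulated data.

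Runs were told by the replicate numbers and by consecutive library numbers. The members and gene lists were chosen with earlier results of these data known, so no p-value was computed over a list. Named are Creb1, the 5 markers, the 15 largest calls in each direction with an assigned name, a locus over 300 bp, a mean of at least 2 FPKM and the same sign in all 5 pairs (Atxn7l1, listed at 2 loci, was left out, and some genes are not reported here), members of the activity and CREB lists, up to 6 members of every other list, and up to 8 genes from each test of a difference of differences. The zinc finger count and Kcnf1 in the S133 comparison were added after values had been seen. Alternatives were other scalings, pseudocounts, filters, no pairing, no trend, all 16 libraries at 8 h and the leaving out of pairs.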

Additional observations from a re-analysis of the deposited data

Results flagged for a closer look

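In 128 named genes, the 5 libraries of each run were searched for one far from the rest (on log2 of scaled FPKM plus 1, a gap of over 0.71 of the range, or Dixon's larger bound for the 4 CREB libraries of Creb1), a rule that chance meets in about 1 in 20 sets. It was met 29 times in 255 sets. In run 2 the WT library was the far low one for 12 genes, most of them of the activity response. The gap was 0.814 of the range for Homer1, 0.791 for Nr4a3, 0.787 for Dusp14, 0.777 for Fosb, 0.756 for Fosl2, 0.745 for Trib1, 0.728 for Junb, 0.719 for Npas4 and 0.714 for Nr4a1. It was 0.952 for Syn1, 0.757 for Pard6a and 0.749 for Scg2. The same WT library was the far high one for Klf10 (0.724) and Srrd (1.0).

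In run 1 the S40A library was the far high one for Egr4 (0.797), Fam46a (0.776), Adcyap1 (0.751), Crh (0.737), Crem (0.736) and Csrnp1 (0.723). The GFP library of run 1 was the far low one for Hddc3 (0.965), Rpl3 (0.875) and Gad2 (0.788). In run 2 GFP was far low for Itgb1bp1 (0.879), where it was listed at 0, and far high for Nptx1 (0.742) and Crebbp (0.73). The S133A library of run 2 was far high for Sox9 (0.825) and far low for Cacnb3 (0.734), and S40A-S133A was far high for Tmco6 (1.0), which was listed at 0 in the other 4.

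The run difference differed between viruses without and with S133 by 4.28 for Emc9, 3.88 for Rasl10a, 2.97 for Arg2, 2.97 for Ctsz, 2.37 for Nrgn, 2.24 for Slc6a7, 1.696 for Slc17a7, 1.69 for Cck, 0.825 for Kcnf1, 0.82 for Arc and -1.39 for Ntng2, each by the test of that difference. The first 4 were listed at 0 in the run 1 libraries of S133A and S40A-S133A, so that their differences are no measure of fold. Between the CREB viruses and GFP it differed by 3.07 for Itgb1bp1, which rests on one value listed at 0, and by 0.99 for Klf10. The GFP difference in both rests on 1 pair, with no replicate of its own.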

How the results depend on the processing

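No gene called with 5 pairs was called in the other direction under any alternative. Without the virus pairing (no replicate block) 4075 genes were called, 3448 of them also called with it, and 7 of the named genes changed their side of the threshold. With a pseudocount of 0.1 the count was 3864, with 75th percentile scaling 3748, with all genes above 0 FPKM 3825 (51.2% of them higher, against 42.4%), with a mean of at least 5 FPKM 2951, without the trend 3654 and with all 16 libraries at 8 h 2972. Without scaling 18.5% of the calls were higher: 1011 were higher and 4445 lower. Leaving out single pairs gave 1826 to 4098 genes, 891 to 1690 higher and 935 to 2408 lower. Without the S133A and S40A-S133A pairs, added after seeing the data, 17 were called, 11 higher and 6 lower, at 2 residual degrees of freedom. Creb1 in the 4 CREB pairs passed in all 8 alternative fits run for it: 2 other scalings, the pseudocount, no pairing and 4 fits with 1 pair left out. The S133 comparison gave 85 genes without the trend and 48 to 123 without single pairs. The comparison of CREB with GFP gave 7 with a pseudocount of 0.1, 4 with a mean of at least 5 FPKM and 30 to 42 without single pairs. Of 105 named genes called, 66 were called in all 5 fits with 1 pair left out. Hddc3 (0.008 with 5 pairs) reversed to -0.332 without the GFP pair, and ran up to 0.146 without other pairs. Depth limits genes at a few FPKM, and values of exactly 0 can be failed estimates.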

Other observations

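The 12 libraries outside this comparison also come as replicate 1 and replicate 2 of GFP, WT and S40A, and none of them entered the comparison of runs. At 4 h of virus expression the 15 genes with the largest rises between the runs were all higher in replicate 2 than in replicate 1 in each of the 3 viruses, with medians of 1.82 for GFP, 2.22 for WT and 2.66 for S40A. The immediate early transcription factors had medians of 1.65, 1.40 and 2.05 in these pairs. In the earlier libraries at 8 h the same 15 genes had medians of -0.53 for GFP, 0.41 for WT and -0.80 for S40A, and the immediate early factors -0.29, 0.12 and -0.56. Differences of that size between libraries of one virus were thus also present at 4 h, while the earlier libraries at 8 h showed no shared direction. No test was made of these single pairs.

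Across 11442 genes with no value of 0 in the 10 libraries, the correlation of the run difference with these replicate differences was 0.27, 0.13 and 0.23 at 4 h and 0.04, 0.40 and -0.04 at 8 h, in the order GFP, WT and S40A. Genes are not independent replicates, and these values are descriptions. Over 5 equal classes of 10801 genes the median run difference ran from -0.05 to 0.01 by transcript length and from -0.04 to -0.01 by GC content. The share called lower ran from 12.7% in the shortest class to 22.5% by length, from 17.6% to 20.4% by GC content and from 12.1% to 26.6% by mean FPKM, and the share called higher from 11.2% to 20.1% by mean FPKM.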
